A study of Mus musculus with 4 samples.

Results

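Fibroblast growth factors (FGFs) and hepatocyte growth factor are secreted by the dermis and act on receptor tyrosine kinases of the overlying epidermis and of the fibroblasts themselves. FGF7 and FGF10 bind the epithelial splice form of FGFR2, and HGF is the ligand of MET, so these ligands carry signals from stroma to keratinocytes. FGF1 binds every FGF receptor, FGF2 acts strongly on FGFR1, the main FGF receptor of mesenchymal cells, and FGF9 and FGF18 prefer the mesenchymal splice forms of the receptors. The genes described here are the 7 ligand genes Fgf1, Fgf2, Fgf7, Fgf9, Fgf10, Fgf18 and Hgf and the 3 receptor genes Fgfr1, Fgfr2 and Met, taken as a named list with every probe set that the array annotation assigns to 1 of them alone. All 10 genes were found, with 21 probe sets, among 18193 genes with 34945 single-gene probe sets.

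Transcript levels came from 4 Affymetrix mouse arrays, 1 per group, hybridised with labelled cRNA from fibroblasts of a C57BL/6 background. In the in vitro pair, cells labelled as deleted for RBP-Jk (gene Rbpj) received Adeno Cre, an adenovirus with Cre recombinase, and their control received Adeno GFP. In the in vivo pair, the deleted sample came from mice labelled ColI Cre x RBP loxp-loxp, in which Cre is named for type I collagen, and the control carried RBP loxp-loxp without Cre. RBP-J kappa, also called CSL, is the DNA-binding partner of activated Notch receptors. The sources used here do not state age, the number of animals pooled or any culture of the in vivo cells before extraction. With 1 array per group, no difference within a pair has a replicate check or a p-value, and the number of arrays limits the precision. In bulk RNA, fewer cells of a type and less RNA per cell cannot be told apart.

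The 3 probe sets of Rbpj differed by -1.34 to 0.10 (log2, deleted minus control) in vitro and by -0.83 to -0.10 in vivo. Whether these probe sets lie in the deleted exons was not tested, so they check the labels only in part. All 9 measured fibroblast markers, among them Col1a1, Pdgfra and Thy1, were above the level cutoff (log2 5.28) on all 4 arrays. The share of all genes above it on all 4 arrays was not computed. The arrays of a pair correlated at r = 0.983 in vitro and r = 0.982 in vivo across probe sets, and arrays of different systems at 0.950 to 0.964. The bioB spike read 8.18 and 8.21 on the in vitro arrays (deleted, control), against 7.05 and 7.06 on the in vivo arrays, so a batch of arrays and the culture system cannot be told apart. The in vitro arrays also differed in their 3′ to 5′ signal, but not in the same direction for every gene read. Actb probes at the 3′ end exceeded those at the 5′ end by 0.40 (log2) on the deleted array and by 1.11 on the control array. In vivo this Actb excess was 0.15 on the deleted and 0.41 on the control array. Gapdh and Pcx also had the larger excess on the in vitro control array. Tfrc went the other way in vitro, with 1.45 on the deleted and 0.96 on the control array.

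Promoter sequence is shown because the deleted protein binds DNA with a TGGGAA core, which itself holds the GGAA core of ETS factors. The RefSeq promoter table (GRCm38.p6) had 9 start sites of 8 of the genes. In the 250 bases before each start, TGGGAA occurred on either strand in 5 of the 9 windows, 1 each for Fgf7, Fgf10, Hgf, Fgfr2 and Met, against 21.6% of the 32851 windows of the same length in the table. The longer form GTGGGAA occurred in 1 of them, that of Met, against 5.42% of all windows. A match is no evidence of binding. The 40 bases around each match are given 5′ to 3′ along the gene, with the core or its complement in capitals:
Fgf7, chr2:126034428-126034467, plus strand: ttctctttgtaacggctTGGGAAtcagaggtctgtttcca
Fgf10, chr13:118714526-118714565, plus strand: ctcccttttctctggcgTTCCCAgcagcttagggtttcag
Hgf, chr5:16553439-16553478, plus strand: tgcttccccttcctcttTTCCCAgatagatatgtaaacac
Fgfr2, chr7:130266890-130266929, minus strand: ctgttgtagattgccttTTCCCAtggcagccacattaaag
Met, chr6:17463913-17463952, plus strand: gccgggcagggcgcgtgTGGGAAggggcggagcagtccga

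The core begins 213 bases before the start in Fgf7, 156 in Fgf10, 39 in Hgf, 104 in Fgfr2 and 27 in Met. The whole 250 bases before the start are given for Fgf7, the ligand with the largest difference in the in vivo pair (chr2:126034408-126034657, plus strand, with the same core in capitals).
Fgf7 promoter: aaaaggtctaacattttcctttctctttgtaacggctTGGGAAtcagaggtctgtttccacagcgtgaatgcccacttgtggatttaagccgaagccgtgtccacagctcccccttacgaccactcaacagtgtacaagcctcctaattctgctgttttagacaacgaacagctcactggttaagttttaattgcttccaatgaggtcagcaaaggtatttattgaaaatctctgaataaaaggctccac

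On its brightest probe set, no ligand or receptor differed by 2-fold between deleted and control fibroblasts in either system. Of the 10 genes, 6 reached the level cutoff by their mean and were counted: Fgf7, Fgf9, Fgf18, Fgfr1, Fgfr2 and Met. At least 2-fold in vitro were 0 of these 6, where 1.93% of the 10916 genes analysed were past that threshold in either direction, and in vivo 0 of 6, where 6.62% were. At that background a count of 0 among 6 genes is not a result about these genes. Their median difference was -0.03 in vitro and -0.09 in vivo, beside -0.06 and -0.03 over all genes analysed. Across all 21 probe sets, 10 were higher and 11 lower in vitro and 13 higher and 8 lower in vivo. None differed by 2-fold after quantile normalization, and 1 in vitro probe set, of Fgfr2, did on the values as deposited (log2 1.02) and after centring (1.05).

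**Figure D1:**
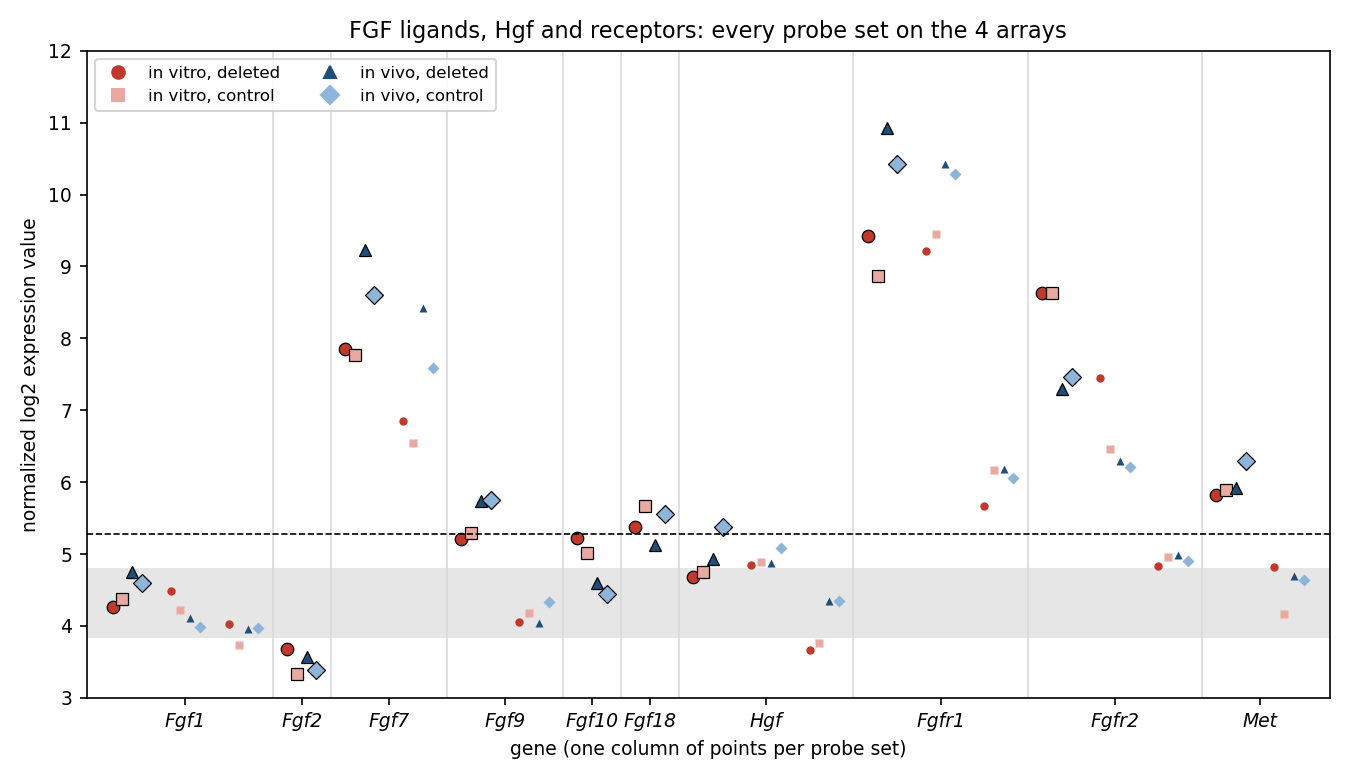
Normalized log2 expression value (vertical axis) of each of the 21 probe sets, grouped by gene (horizontal axis). Each point is 1 array, outlined symbols mark the brightest probe set of a gene, the dashed line is the level cutoff, and the grey band runs from the median to the 95th percentile of 43 olfactory receptor probe sets. Fgf7, Fgfr1 and Fgfr2 stand well above the band on their brightest probe sets, and Fgf1 and Fgf2 lie in or under it.

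Fgf7, keratinocyte growth factor, had the largest in vivo difference of the ligands. Its brightest probe set read log2 9.23 on the deleted and 8.61 on the control array in vivo, and 7.85 on the deleted and 7.78 on the control array in vitro. The second probe set read 8.43 on the deleted and 7.59 on the control array in vivo, and 6.85 on the deleted and 6.55 on the control array in vitro. Both probe sets were thus higher with the deletion in vivo, by 1.55-fold and 1.78-fold, and by 1.05-fold and 1.24-fold in vitro. An in vivo difference of this size is not rare on these arrays, since 17.0% of all genes analysed lay as far from 0 in either direction. At a threshold of 1.5-fold, Fgf7 was the 1 of the 6 genes that was higher in vivo, against 8.02% of all genes.

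In the in vivo pair, keratinocyte and skeletal muscle markers were mostly higher on the deleted array. The macrophage, endothelial, melanocyte and Schwann, and adipocyte lists had medians of 0.06, 0.23, -0.002 and 0.23 in vivo. Of their markers that passed the filter (6, 3, 3 and 3), 0 were at least 2-fold higher, against 2.81% of all genes. At least 2-fold lower was 1, Lyz2 of macrophages, against 3.81%. Keratinocyte markers, of which 15 had a probe set, summed to an unlogged level of 6929 on the deleted and 719 on the control array. Of the 10 that passed the level filter, 8 were at least 2-fold higher, against 2.81% of all genes analysed. Over all 15, 10 were at least 2-fold higher, against 340 of 18193 genes without the filter. Krt5 read 10.28 on the deleted and 6.04 on the control array, and Cdh1, under the filter, read 5.22 on the deleted and 3.56 on the control array. Trp63, a factor of basal keratinocytes also under the filter, read 5.19 on the deleted and 5.64 on the control array. Skeletal muscle and myoblast markers, of which 14 had a probe set, summed to 3751 on the deleted and 891 on the control array. Of the 10 that passed, 9 were at least 2-fold higher, and over all 14, 10 were, beside the same shares. Under the filter, Myf5 differed by 0.04 and Pax7 by -0.15. Because the filter uses the mean of the 4 arrays, a marker could pass through the deleted in vivo array alone. In vitro the same lists went the other way, with 8 of 10 keratinocyte markers lower (median -0.52) and 8 of 10 muscle markers lower (median -0.46). Of all genes analysed, 42.5% were higher by any amount in vitro. At least 2-fold lower in vitro were 3 keratinocyte markers and 1 muscle marker, against 1.15% of all genes. The part of these cells in the differences of Fgf7 and of the genes below was not tested.

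Fgf18, which acts on mesenchyme and cartilage, and Fgf9 were close to the level cutoff. Fgf18 read 5.12 on the deleted and 5.55 on the control array in vivo, and 5.37 on the deleted and 5.66 on the control array in vitro, so it was lower with the deletion in both systems, by 1.35-fold and 1.22-fold, on its single probe set. Fgf9 read 5.74 on the deleted and 5.75 on the control array in vivo, and 5.21 on the deleted and 5.30 on the control array in vitro. Its second probe set lay between 4.04 and 4.33 on all arrays.

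The other ligands were dim. To gauge the background, 43 probe sets of olfactory receptor genes, which are expressed mainly in the nose, were read as a yardstick chosen after seeing the data, and their 95th percentile was 4.74 to 4.79 on the 4 arrays. Fgf2, the basic fibroblast growth factor, read 3.68 on the deleted and 3.33 on the control array in vitro, and 3.56 on the deleted and 3.39 on the control array in vivo, so its single probe set lay under this percentile on every array. All 3 probe sets of Fgf1, between 3.73 and 4.75, did so too. Fgf10 read 5.23 on the deleted and 5.01 on the control array in vitro, above the percentile, and 4.60 on the deleted and 4.45 on the control array in vivo, below it. The values of these genes say little about a difference in either direction.

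Hgf, the MET ligand, had 3 probe sets under the level cutoff by their means. The brightest read 4.94 on the deleted and 5.38 on the control array in vivo (1.36-fold lower with the deletion), and 4.68 on the deleted and 4.75 on the control array in vitro. The second differed by -0.21 in vivo and the third by 0.01, so the probe sets do not share a sign there. Only the in vivo control array reached the cutoff, and only on the brightest probe set.

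**Figure D2:**
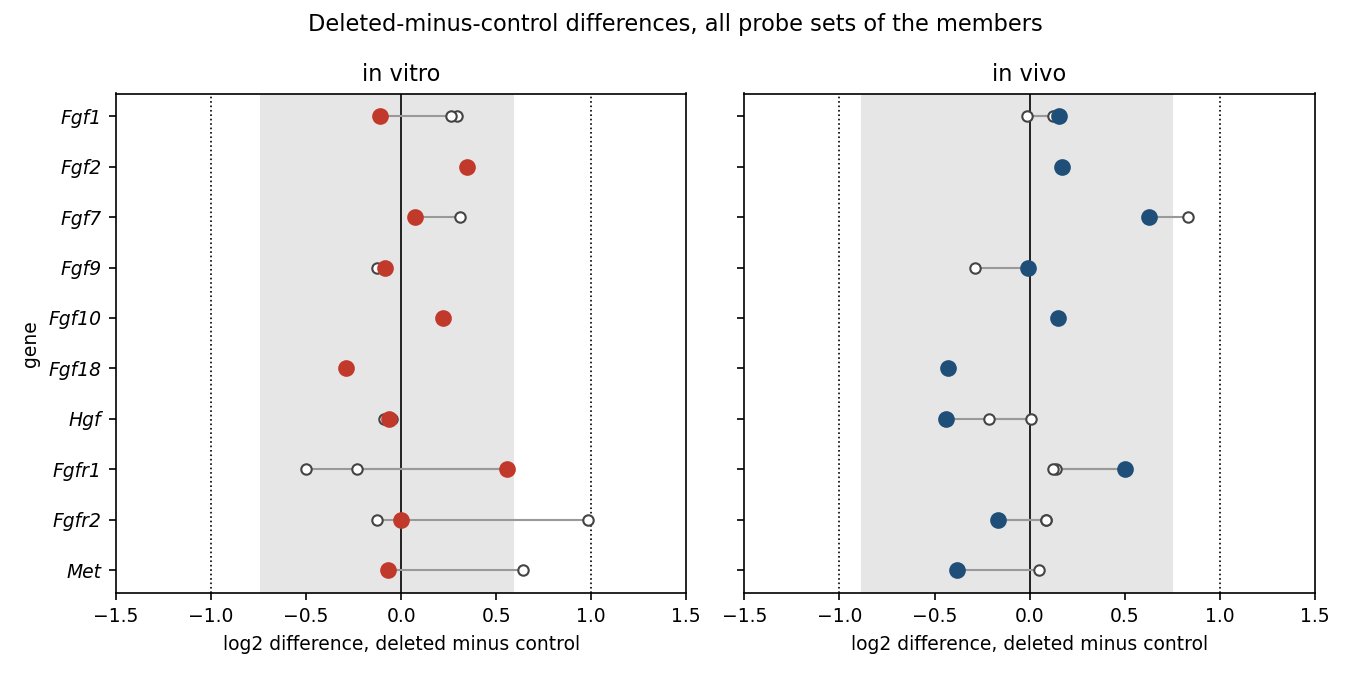
Log2 difference, deleted minus control array (horizontal axis), for each gene (vertical axis), in vitro on the left and in vivo on the right. Filled points are the brightest probe sets, open points the others, grey bands span the 5th to 95th percentile of all 10916 genes analysed (-0.74 to 0.59 in vitro, -0.88 to 0.75 in vivo) and dotted lines mark 2-fold. The brightest probe sets all lie inside the bands, and the probe sets of Fgfr1, Fgfr2 and Met spread widely in vitro.

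Fgfr1, the FGF receptor of mesenchymal cells, was higher with the deletion in both systems on its brightest probe set and on no other in vitro. That probe set read 9.42 on the deleted and 8.87 on the control array in vitro (1.47-fold higher), and 10.92 on the deleted and 10.42 on the control array in vivo (1.41-fold higher). A second read 9.22 on the deleted and 9.45 on the control array in vitro, and 10.43 on the deleted and 10.29 on the control array in vivo. The third read 5.67 on the deleted and 6.17 on the control array in vitro, and 6.19 on the deleted and 6.06 on the control array in vivo. Over the 3 probe sets the difference averaged 0.26 ± 0.21 (SD) in vivo and -0.06 ± 0.55 (SD) in vitro, so no direction in vitro holds across probe sets.

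Fgfr2, the receptor of FGF7 and FGF10 in its epithelial form, depended on the probe set in vitro. Probe set 1420847_a_at read 7.45 on the deleted and 6.47 on the control array in vitro (1.98-fold higher, and 2.02-fold on the values as deposited), whereas the brighter 1433489_s_at read 8.63 on the deleted and 8.62 on the control array. The dimmest, under the cutoff, read 4.83 on the deleted and 4.96 on the control array. The range of 1.11 between the probe sets of Fgfr2 was reached or passed by 13.9% of the 6856 analysed genes with several probe sets, and that of Fgfr1 (1.05) by 15.5%, while the median range was 0.49. In vivo, 1433489_s_at read 7.30 on the deleted and 7.46 on the control array, and 1420847_a_at read 6.29 on the deleted and 6.21 on the control array. The 3′ to 5′ signal differed between the in vitro arrays as given above, with Tfrc opposite to Actb, Gapdh and Pcx. The in vitro difference rose with gene length across 10891 genes (Spearman rho = 0.259, genes not being independent replicates). The part of the 3′ to 5′ signal in the spread of probe sets was not tested.

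Met, the HGF receptor of epithelial cells and myoblasts, was near the cutoff. Its brighter probe set read 5.91 on the deleted and 6.30 on the control array in vivo (1.30-fold lower), and 5.82 on the deleted and 5.89 on the control array in vitro. The dimmer one read 4.69 on the deleted and 4.64 on the control array in vivo and 4.81 on the deleted and 4.17 on the control array in vitro, so the 2 differ in sign in both systems.

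The deletion effect shared by both systems sets both deleted against both control arrays, and was fitted with limma over all 10916 genes with system as a term. With 1 array per group, the residual of a gene is the disagreement between its in vitro and in vivo differences. The SEs and p-values, moderated over genes, therefore do not measure variation between replicates of a group. It called 0 genes at an adjusted p of 0.05 (0% of those tested), and 759 (6.95%) had an unadjusted p under 0.05. Of the 6 genes, Fgfr1 had such an unadjusted p, with a shared log2 difference of 0.53 ± 0.20 (SE) and an adjusted p of 0.679 in limma. It was 0.35 ± 0.24 for Fgf7 (adjusted p = 0.722 in limma) and -0.36 ± 0.20 for Fgf18 (adjusted p = 0.693 in limma). Fgf9, Fgfr2 and Met lay at -0.05 ± 0.20, -0.08 ± 0.20 and -0.23 ± 0.21, with adjusted p-values in limma from 0.797 to 0.967. SEs were near 0.2, with 1 residual degree of freedom per gene moderated over genes (3.69 prior degrees of freedom). After adjustment over all 10916 genes, none of these shared differences could be told from 0.

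On the brightest probe sets of Fgfr1, Fgfr2 and Fgf7, the in vivo and in vitro arrays lay further apart than deleted and control arrays did. This did not hold for every probe set. Fgfr2 1420847_a_at differed by 0.98 with the deletion in vitro and by -0.71 between systems (in vivo minus in vitro). The dimmest probe set of Fgfr1 differed by -0.50 with the deletion in vitro and by 0.21 between systems. Of the 6 genes, 4 had both in vivo arrays above both in vitro arrays, against 31.7% of all genes, and 1 had both below, against 26.4%. Among the 4 was Fgf9, at 5.21 and 5.30 in vitro (deleted, control), around the level cutoff of 5.28. Its in vivo values of 5.74 and 5.75 raised the mean that the filter used, so this count is not a result about these genes. Fgfr1 was higher in vivo by 1.52 ± 0.20 (SE) on the log2 scale in the same limma fit (adjusted p = 0.0383), where 4.11% of genes passed 0.05 for the system term. Fgfr2 was lower in vivo by 1.25 (log2 difference -1.25 ± 0.20, adjusted p = 0.0501 in limma), and Fgf7 was higher by 1.11 ± 0.24 (adjusted p = 0.0766 in limma). The call of Fgfr1 was lost with no level filter (adjusted p = 0.0712 in limma) and when the probe sets of a gene were replaced by their median (0.0677), and Fgfr2 passed 0.05 under 4 alternatives. Without its _s_at probe set, Fgfr2 was lower in vivo by 0.71 (log2 difference -0.71, adjusted p = 0.194 in limma). The system term was read after the values were seen, and array batch goes with it. In its fit the deleted and control arrays of a system stand in for replicates.

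Of the 8 probe sets above the cutoff on all 4 arrays, which belong to 4 genes, 5 were higher in vivo, 2 lower and 1 overlapped. By gene, 31.7% of all genes analysed had both in vivo arrays above both in vitro arrays, and 26.4% had both below. The share over all probe sets was not computed, so this count is not a result about these genes. Both bright probe sets of Fgfr2 were lower on both in vivo arrays than on both in vitro arrays, by means of 1.25 and 0.71, and both probe sets of Fgf7 were higher, by 1.11 and 1.31. The dimmest probe set of Fgfr1 was the one that overlapped.

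**Figure D3:**
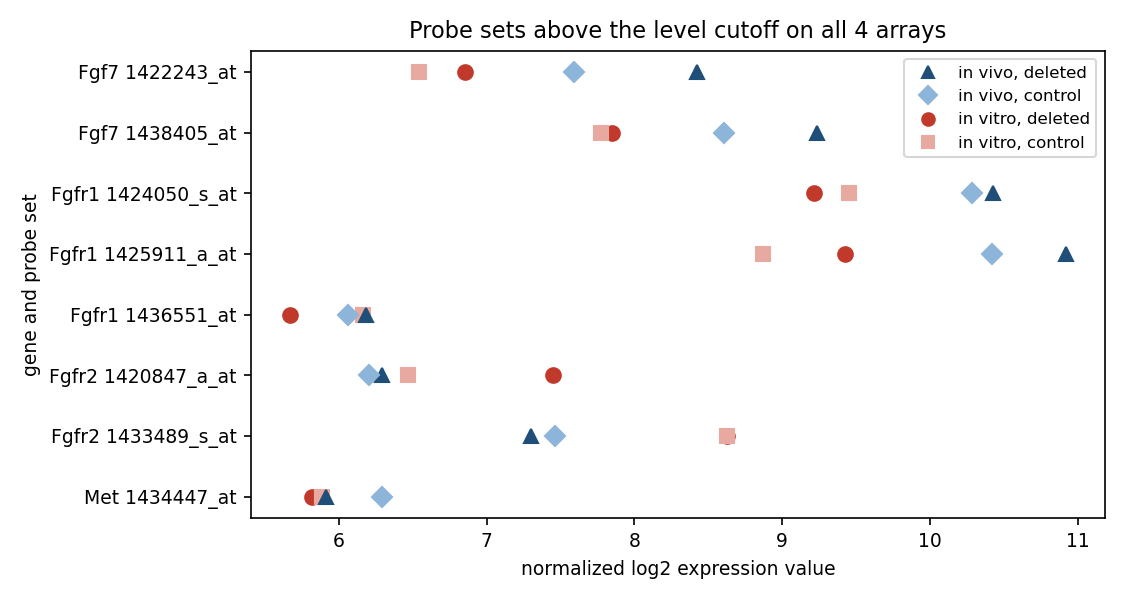
Normalized log2 expression value (horizontal axis) on the 4 arrays for the 8 probe sets above the level cutoff on every array (vertical axis). Blue points are the in vivo arrays and red points the in vitro arrays, darker for the deletion. In vivo points lie to the right for Fgf7 and for the brighter probe sets of Fgfr1, and to the left for Fgfr2.

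Genes around these receptors were taken from 6 lists. ERK feedback inhibitors and transcription targets of FGF signalling, 14 with a probe set and all above the filter, had a median difference of 0.43 in vivo, against -0.03 over all genes, with 9 higher and 5 lower. At least 2-fold higher in vivo were 4 of the 14, against 2.81% of all genes, and 1 was at least 2-fold lower, against 3.81%. Phlda1, a growth-factor-induced gene, read 9.87 on the deleted and 8.02 on the control array. Fosl1, an AP-1 subunit, read 9.04 on the deleted and 7.44 on the control array. Etv4, an ETS factor induced by FGF, read 7.38 on the deleted and 5.81 on the control array, and a second probe set differed by 0.29. The phosphatase Dusp4, named after its value was seen, read 7.63 on the deleted and 6.63 on the control array.

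In the same list, 5 members went the other way in vivo, among them Il17rd and Spry1. Il17rd, an inhibitor of FGF receptor signalling also known as Sef, read 5.56 on the deleted and 6.62 on the control array, and Spry1, an ERK antagonist, read 8.94 on the deleted and 9.82 on the control array. Dusp6, a phosphatase of ERK, was higher with the deletion, by 0.31 in vivo and 0.46 in vitro. In vitro the list had a median of 0.10, against -0.06 over all genes. Of the 14 genes, 0 were 2-fold different in vitro on their brightest probe sets, against 1.93% of all genes. Another probe set of Etv5 was at 1.16 in vitro. Spry1 was at 0.66 in vitro and Spred2, a Sprouty relative, at 0.64 (range of its probe sets -0.46 to 0.64). The list is not particular to FGF, as ERK also lies downstream of other growth factor receptors, and keratinocyte and muscle markers moved in the same pair as given above.

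Heparan sulfate proteoglycans and their enzymes hold FGFs at the cell surface. Of 18 that passed the filter, 1 was at least 2-fold higher in vivo, against 2.81% of all genes, and 2 were at least 2-fold lower, against 3.81%, with a median of -0.03. Sdc1, syndecan 1, read 10.88 on the deleted and 9.70 on the control array, and all of its 4 probe sets were higher, by 1.02 to 1.32. Sulf2, which removes sulfate groups from heparan sulfate, read 9.35 on the deleted and 10.86 on the control array (range of probe sets -1.65 to -0.36), and Gpc3, glypican 3, read 7.82 on the deleted and 9.16 on the control array. By brightest probe set, 0 of 18 differed by 2-fold in vitro, against 1.93% of all genes. Hs2st1, a sulfotransferase, had the largest such difference (0.89, range of probe sets -0.56 to 0.89). Another probe set of Sdc1 was at 1.28 in vitro.

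Among the 16 other FGF genes, 5 passed the filter, and Fgf13, which encodes an intracellular FGF homologous factor and no receptor ligand, was the 1 that was at least 2-fold higher in vivo, against 2.81% of all genes. It read 5.85 on the deleted and 4.44 on the control array in vivo, with the control under the cutoff, and its second probe set differed by 0.08. Fgf21, an endocrine FGF, was lower on its single probe set, at 6.41 on the deleted and 7.34 on the control array in vivo and 6.22 on the deleted and 6.79 on the control array in vitro. By brightest probe set, other receptors and coreceptors had a median of 0.46 in vivo over 7 genes, 0 of them 2-fold different, against 6.62% of all genes. Klb, the coreceptor of endocrine FGFs, had the largest such difference in vivo, at 5.58 on the deleted and 4.76 on the control array. Its second probe set was at -0.07. Mst1r, a relative of MET, had the largest such difference in vitro, at 5.33 on the deleted and 5.94 on the control array. Cd44, a coreceptor of MET, read 11.80 on the deleted and 11.08 on the control array in vivo. Its probe sets ranged from 0.11 to 1.05 in vivo and from -0.08 to 2.74 in vitro. Flrt2, a membrane partner of FGF receptors, differed by 0.67 in vivo. Its probe sets ranged from 0.67 to 1.40 in vivo and from 0.59 to 1.08 in vitro.

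Receptor adaptors and kinases, 12 genes, had a median of -0.07 in vivo and 0.26 in vitro. By their brightest probe sets, 0 of them differed by 2-fold in either system, against 1.93% of all genes in vitro and 6.62% in vivo. At those shares, counts of 0 in lists this short are not a result about the lists. Sos1, a Ras activator, had the largest in vivo difference of the brightest probe sets (-0.66, range of its probe sets -0.66 to 0.75). Map2k2, a kinase of ERK, had the largest of these in vitro (-0.50). Other probe sets were more than 2-fold higher in vitro, at 1.48 for Shc1, 1.44 for Gab1, 1.33 for Pik3r1, 1.21 for Cbl and 1.20 for Sos1. Of 12 genes that activate pro-HGF or inhibit the activation, 3 passed the filter, and St14, the epithelial protease matriptase, read 6.33 on the deleted and 5.31 on the control array in vivo. Plat, tissue plasminogen activator, differed by 0.62 in vitro and -0.05 in vivo, and Spint2, an inhibitor of HGF activator, by 0.01 and -0.08. In limma, 0 genes of these 6 lists passed an adjusted p of 0.05 for the shared deletion effect.

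**Figure D4:**
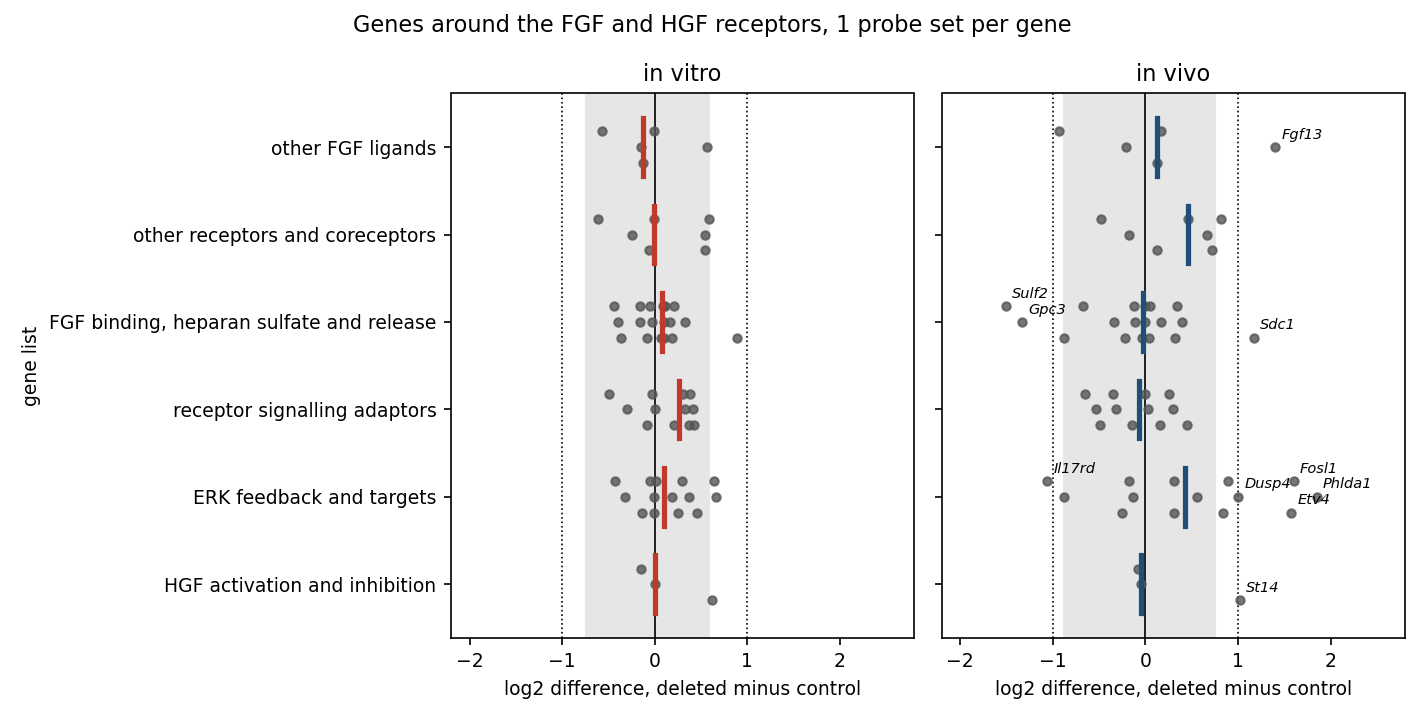
Log2 difference, deleted minus control array (horizontal axis), for the genes of each list that passed the level filter (vertical axis), in vitro on the left and in vivo on the right. Points are genes by their brightest probe set, bars are list medians, grey bands the 5th to 95th percentile of all genes analysed and dotted lines 2-fold. No gene of these lists passes 2-fold in vitro, where 1.93% of all genes do, and the genes labelled in the plot do in vivo, where 6.62% do.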

How the data were processed

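The deposited table holds log2 expression values for 45101 probe sets on 4 arrays, per the file's range (2.87 to 13.79, 0 missing). The sources used here do not give the authors' software or normalization. RNA was poly(A) primed and labelled as antisense cRNA, per the labels' protocols. Since the deposited upper quartiles differed (6.91 to 7.18), values were quantile normalized. Single-gene probe sets followed the platform annotation, and 34741 matched RefSeq by gene ID. 932 probe sets with several symbols were unnamed. Each gene took its brightest probe set by the mean of 4 arrays, and genes at or above the 40th percentile were analysed. Differences are deleted minus control, counted at 2-fold. The shared effect was fitted with limma 3.58.1 in R 4.3.3 (deletion plus system, Benjamini-Hochberg over all genes), and the procedures were checked on simulated data. Members and lists were chosen with earlier results of these data known. Genes named from a list, Dusp4 excepted, were among its 4 with the largest difference in a comparison. A rule for genes of like pattern applied to members at least 2-fold different, of which there were 0. Alternatives were other normalizations, filters, probe set rules, thresholds and model terms.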

Additional observations from a re-analysis of the deposited data

Results flagged for a closer look

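Spry1 stood out because its difference had opposite directions in the 2 systems, past 1.5-fold in both: the deleted array minus its control was 0.66 in vitro (10.47 on the deleted and 9.82 on the control array) and -0.88 in vivo (8.94 on the deleted and 9.82 on the control array). The in vivo difference minus the in vitro difference was -1.54 on the log2 scale. With 1 array per group this contrast was not tested, and Spry1 has 1 probe set.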

How the results depend on the processing

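By gene, 0 members were 2-fold different under every normalization, filter and probe set rule that was run, and at 1.5-fold 1 member, Fgf7, was higher in vivo. The shared deletion effect called 0 genes in limma under all 10 alternatives, with 131 to 1230 genes at an unadjusted p under 0.05. Adjusted p-values of the 6 members for it were 0.639 or more in every setting run. Over all genes, those 2-fold lower in vitro numbered 83 after centring and 80 with a pseudocount of 15.4 (unlogged), against 125. Those 2-fold higher in vitro numbered 248 with the median of all probe sets, against 86, and those higher in vivo 161 with the filter at the 60th percentile, against 307. At 1.5-fold, 557 genes were higher and 1054 lower in vitro, and 875 higher and 1226 lower in vivo. At 3-fold the counts were 13 and 2 in vitro and 80 and 112 in vivo. Fgfr2 was at 0.98 in vitro, against 0.00, with the median of its probe sets or without those ending in _s_at or _x_at. Fgfr1 was at 0.14 in vivo and Met at 0.29 in vitro with the median of probe sets. The adjusted p of the system term in limma ran from 0.0191 to 0.0712 for Fgfr1, from 0.0353 to 0.205 for Fgfr2 and from 0.0596 to 0.0958 for Fgf7. The system term pairs the arrays of a system, and without it 131 genes had an unadjusted p under 0.05, against 759. No other paired analysis was possible because each group had 1 array. Genes under the level cutoff lie near background, where a log2 difference understates a change.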

Other observations

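On their brightest probe sets, some genes around the receptors differed more between systems than between deleted and control. Fgf13 read 5.85 and 4.44 on the in vivo arrays (deleted, control) and 8.76 and 8.19 on the in vitro arrays (deleted, control). Gpc3 read 7.82 and 9.16 on the in vivo arrays (deleted, control) and 11.13 and 11.50 on the in vitro arrays. Sulf2 read 9.35 and 10.86 on the in vivo arrays (deleted, control) and 12.45 and 12.25 on the in vitro arrays. For each of them both in vivo arrays were below both in vitro arrays, as 26.4% of all genes were. These genes were picked for this pattern after their values were seen, and the culture system cannot be told apart from a batch of arrays.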
